A study of Ovis aries with 8 samples.

Results

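Albumin and 9 other genes of proteins that the liver secretes into blood plasma were followed in lamb perirenal adipose tissue: ALB, SERPIND1, MBL2, TTR, APOA1, APOE, FGA, FGB, TF and AHSG. A gene was represented by every probe set of the Affymetrix Bovine Genome array that the platform annotation gives its symbol alone. The array carried 25 such probe sets among 24016 that were not controls, 13292 of which had a single gene symbol. ALB had 9 of them, AHSG had 8, FGB had 2, and SERPIND1, MBL2, TTR, APOA1, APOE and TF had 1 each. FGA, the fibrinogen alpha chain, had none, so 9 of the 10 genes were measured. The genes were picked with the genotype contrast of these arrays known, so their genotype differences are given below as a description with a 95% interval and with no test.

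Hepatocytes make most plasma proteins and release them into the blood, where the proteins carry fatty acids, hormones, iron and lipids, hold clotting in check or take part in defence. Albumin is the most abundant of them and the main carrier of fatty acids released from fat. Heparin cofactor II and mannose-binding lectin are likewise products of the liver, whereas apolipoprotein E is also made by fat cells, macrophages and glia.

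The tissue came from male lambs of 12 weeks, bred from Dorset, Suffolk and Rambouillet crosses. The NmatCpat genotype (labelled NCpat or Callipyge; 4 lambs) carried the Callipyge mutation on the chromosome inherited from the father, the arrangement under which certain skeletal muscles overgrow. The NmatNpat genotype (labelled NN or wildtype; 4 lambs) carried the normal allele on both chromosomes, and no agent was given to either group. Each lamb had 1 array, so the spread between arrays holds animal and technical variation together, and the RNA was that of a whole tissue piece hybridised to probes designed for cattle. Values are the deposited intensities, on a linear scale, or their log2 after quantile normalization over the 8 arrays. In a tissue sample of this kind, fewer cells of a type and less RNA per cell cannot be told apart.

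The arrays were alike in most respects. The median intensity was 65.3 to 72.55, the mean correlation of an array with the others 0.897 to 0.914, and the 3′ to 5′ ratio of GAPDH 0.941 to 1.15. The 3′ to 5′ ratio of actin, a sign of RNA integrity, was 26.1 on the array of NmatNpat animal 1 and 4.04 on that of NmatNpat animal 2. The other arrays had 7.39 to 11.8. The part of this ratio in the results below was not tested. The labelled tissue was borne out by most of its markers, with ADIPOQ (adiponectin) at a log2 level of 12.81 to 13.29 on every array. Of the 11 measured fat cell markers 1, LEP (leptin), stayed under the array's median on every array, at 13.9 to 52.5. PNPLA2, a lipase, read 47.3 to 183.4. Some further values touch the results below. The 8 neuron markers averaged a log2 level of 10.95 on NmatNpat animal 1 against 4.38 to 6.08 on the other arrays. The mean of the 10 measured muscle markers was highest on NmatCpat animal 4 at 7.49. That of the 5 measured mesothelium markers was highest on NmatNpat animal 4 at 7.92 and NmatCpat animal 1 at 7.24. Not every marker went with the mean of its list: CKM was lowest on NmatCpat animal 4, and MSLN was highest on NmatCpat animal 3.

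The clearest pattern was that of 2 of the 9 albumin probe sets, which were high in 3 NmatNpat lambs and low in the other 5 lambs. Probe set Bt.5130.1.A1_a_at read 141.8, 4.5, 190.0 and 238.2 in NmatNpat animals 1, 2, 3 and 4. It read 4.6, 7.2, 3.8 and 5.5 in NmatCpat animals 1, 2, 3 and 4. The fourth NmatNpat lamb, animal 2, therefore lay among the NmatCpat lambs, and the genotypes overlapped. Measured against all probe sets of the same array, this probe set moved from the 4.99th percentile in the lowest lamb to the 77.6th in the highest, so the low readings were near the bottom of the array's range.

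A second probe set for albumin, Bt.5130.2.A1_x_at, gave the same picture. It read 108.0, 3.8, 142.8 and 160.8 in NmatNpat animals 1 to 4, and 4.8, 3.0, 3.4 and 6.3 in NmatCpat animals 1 to 4. The high lambs were again NmatNpat animals 4, 3 and 1, in that order. Over the 8 lambs the pair correlated at r = 0.998 once 16 had been added to every intensity before the log, and at r = 0.988 without this offset. The 2 probe sets stem from one sequence cluster, and the suffix of the second one marks probes that can match more than 1 transcript, so they are not independent readings of the gene. On the log2 scale Bt.5130.1.A1_a_at stood at 6.17 ± 2.715 (SD, n = 4) in NmatNpat and 2.35 ± 0.4924 (n = 4) in NmatCpat. The order of the 3 high lambs rests on log2 levels of 7.11, 7.55 and 7.90, while the 5 low lambs lay between 1.91 and 2.99.

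The remaining 7 probe sets annotated to ALB did not share the pattern. Each of them is tied by the annotation to an expressed sequence tag, whereas both varying probe sets are tied to an mRNA record. Bt.12370.1.S1_at read 867.6, 803.9, 935.1 and 911.3 in NmatCpat animals 1 to 4 and 1073.6, 890.4, 911.7 and 858.1 in NmatNpat animals 1 to 4. It stood above the 92nd percentile of every array, with NmatNpat animal 2 in the middle of its range. Bt.656.1.S1_at read 363.6 to 614.5 in NmatCpat and 436.3 to 652.6 in NmatNpat, and Bt.656.2.S1_at read 281.5 to 557.0 and 391.4 to 538.7. Bt.20236.1.S1_at read 245.0 to 381.4 in NmatCpat and 266.2 to 393.7 in NmatNpat. These 4 probe sets were bright in all 8 lambs, and the lambs with high readings on the varying pair did not stand apart on any of them.

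Of the other 3, Bt.20079.1.S1_at was of medium brightness, reading 60.7 to 101.2 in NmatCpat lambs and 59.1 to 151.8 in NmatNpat lambs, and its lowest lamb was NmatNpat animal 4, the lamb with the highest albumin reading. Bt.23698.1.A1_at read 4.3 to 13.5 and 2.9 to 10.1, and Bt.23855.1.A1_at read 5.2 to 21.9 and 5.2 to 22.3. Both were dim in every lamb. The 7 probe sets correlated with Bt.5130.1.A1_a_at at r = -0.07 to 0.28, and none had the same 3 highest lambs. They spanned 0.47 to 2.20 on the log2 scale between their lowest and highest lamb, against 5.99 for the varying probe set. A mean over all 9 ALB probe sets therefore mixes 2 readings that vary together with 7 that do not follow them. Which of the 9 match albumin mRNA could not be checked, as no probe sequences were used. Below, albumin without a probe set name means the reading of Bt.5130.1.A1_a_at.

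**Figure D1:**
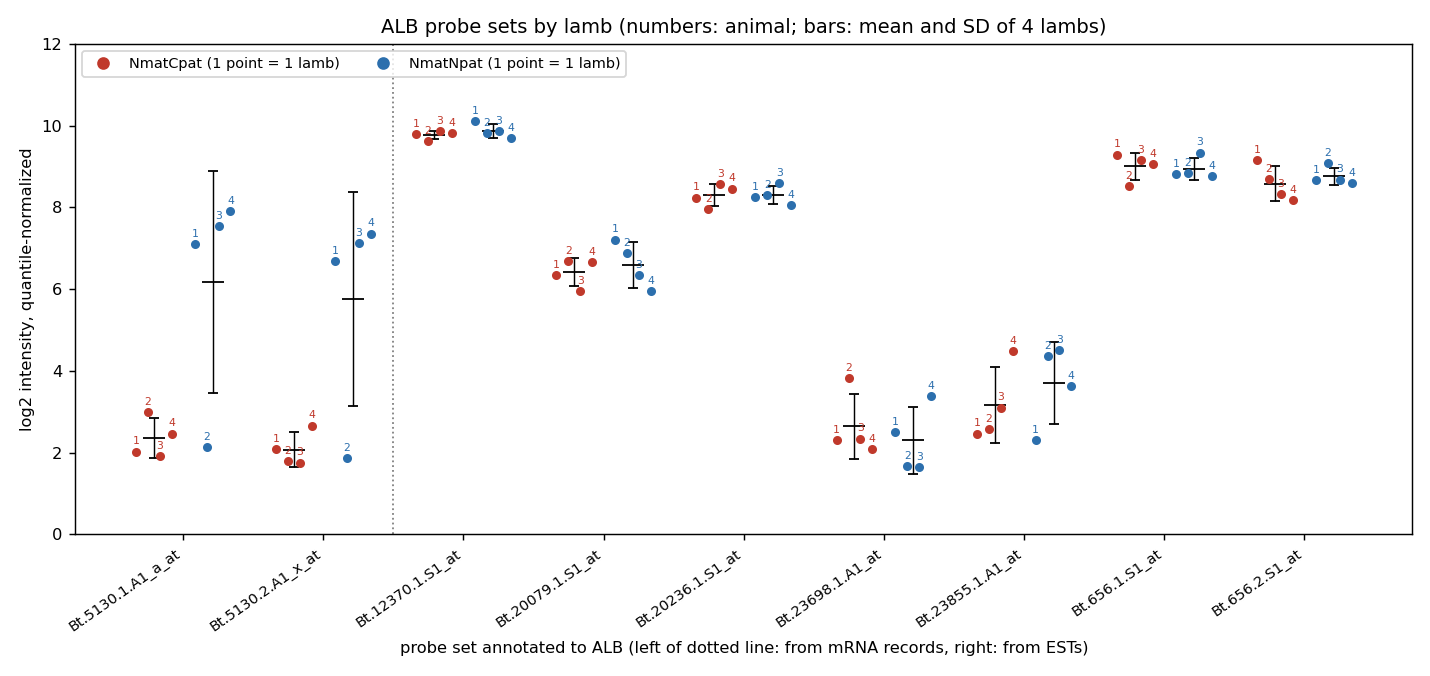
Log2 quantile-normalized intensity of the 9 probe sets annotated to ALB (y axis) in each lamb; each point is 1 lamb with its animal number, red for NmatCpat and blue for NmatNpat, and the bars give the mean and SD of 4 lambs. On both probe sets left of the dotted line NmatNpat animals 1, 3 and 4 lie far above the other 5 lambs, and on the 7 to its right they do not.

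SERPIND1 encodes heparin cofactor II, an inhibitor of thrombin. Its only probe set read 26.4, 3.0, 30.9 and 13.9 in NmatNpat animals 1, 2, 3 and 4. It read 3.6, 2.6, 2.5 and 2.0 in NmatCpat animals 1 to 4. The 3 high lambs were those with high albumin, in another order, and NmatNpat animal 2 again lay among the NmatCpat lambs. The readings were dim throughout, between the 1.81st and the 31.8th percentile of the array. On the log2 scale they averaged 3.74 ± 1.552 (SD, n = 4) in NmatNpat and 1.37 ± 0.3054 (n = 4) in NmatCpat.

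MBL2 encodes mannose-binding lectin, which binds sugars on microbes and starts the lectin pathway of complement. Its probe set read 15.7, 1.8, 11.2 and 7.5 in NmatNpat animals 1, 2, 3 and 4, and 1.6, 1.8, 1.7 and 2.6 in NmatCpat animals 1 to 4. The same 3 NmatNpat lambs were high and animal 2 was low. All of these readings were among the dimmest of the array, between the 0.995th and the 19.3th percentile, and the log2 mean was 2.80 ± 1.387 (SD, n = 4) in NmatNpat and 0.88 ± 0.3753 (n = 4) in NmatCpat.

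APOE, whose protein brings lipoproteins to their receptors, was the remaining gene with the same 3 highest lambs as albumin, but at a high level in all of them. It read 1199.9, 281.6, 486.5 and 452.3 in NmatNpat animals 1 to 4 and 357.3, 363.9, 329.3 and 290.8 in NmatCpat animals 1 to 4. NmatNpat animal 1 exceeded the next lamb by more than that lamb exceeded the lowest, and NmatNpat animal 2 had the lowest reading of all. The neuron markers were also highest on NmatNpat animal 1, and their part in the APOE reading was not tested. Without that array the correlation of APOE with albumin was r = 0.89, against r = 0.68 with it.

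The carriers TF and TTR followed albumin only in part. TF, the plasma iron carrier transferrin, read 942.2, 655.4, 849.0 and 1016.5 in NmatNpat animals 1 to 4 and 933.5, 758.5, 589.4 and 943.9 in NmatCpat animals 1 to 4. Its highest lamb was NmatNpat animal 4, but NmatCpat animals 4 and 1 came above NmatNpat animal 3, and all 8 lambs lay between the 89.7th and the 93.8th percentile. TTR, transthyretin, carries thyroxine and the retinol-binding protein. It read 28.5, 3.2, 4.2 and 30.4 in NmatNpat animals 1 to 4 and 10.2, 21.9, 6.3 and 3.1 in NmatCpat animals 1 to 4. NmatNpat animals 4 and 1 were highest and animal 2 was low, as for albumin, but NmatNpat animal 3 was also low and NmatCpat animal 2 was high.

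APOA1, the main protein of high density lipoprotein, did not follow albumin. It read 47.3, 18.3, 94.8 and 66.4 in NmatNpat animals 1 to 4 and 15.9, 55.8, 185.8 and 67.1 in NmatCpat animals 1 to 4. The highest lamb was NmatCpat animal 3, in which albumin was lowest.

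FGB, the beta chain of the clot-forming protein fibrinogen, had probe sets that disagreed. Bt.24005.1.A1_at read 57.7, 23.1, 47.4 and 18.5 in NmatCpat animals 1 to 4 and 20.8, 31.7, 7.5 and 13.1 in NmatNpat animals 1 to 4, with the lowest values in NmatNpat animals 3 and 4. It ran against albumin, at r = -0.77. Bt.24205.1.A1_at read 2.1 to 18.3 in NmatCpat and 2.6 to 12.1 in NmatNpat, and showed no such order (r = -0.10).

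AHSG encodes fetuin-A, a plasma glycoprotein that keeps calcium phosphate in solution. The brightest of its 8 probe sets, Bt.2898.2.S1_a_at, was nearly flat, reading 424.8 to 545.7 in NmatCpat lambs and 483.6 to 517.1 in NmatNpat lambs. Bt.2898.3.S1_at read 153.1 to 223.0 and 129.5 to 209.4, and its lowest lambs were NmatNpat animals 3 and 4, opposite to albumin (r = -0.81). The other 6 were dimmer, reading from 0.8 to 62.4 over all lambs. Among these, Bt.23250.6.A1_x_at read 35.1, 30.8, 37.4 and 16.6 in NmatNpat animals 1 to 4 and 6.2, 9.6, 5.5 and 34.3 in NmatCpat animals 1 to 4. It was high in NmatNpat animal 2 and in NmatCpat animal 4, where albumin was low. None of the 8 AHSG probe sets had the 3 highest lambs of albumin, and their correlations with it ran from -0.81 to 0.43.

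**Figure D2:**
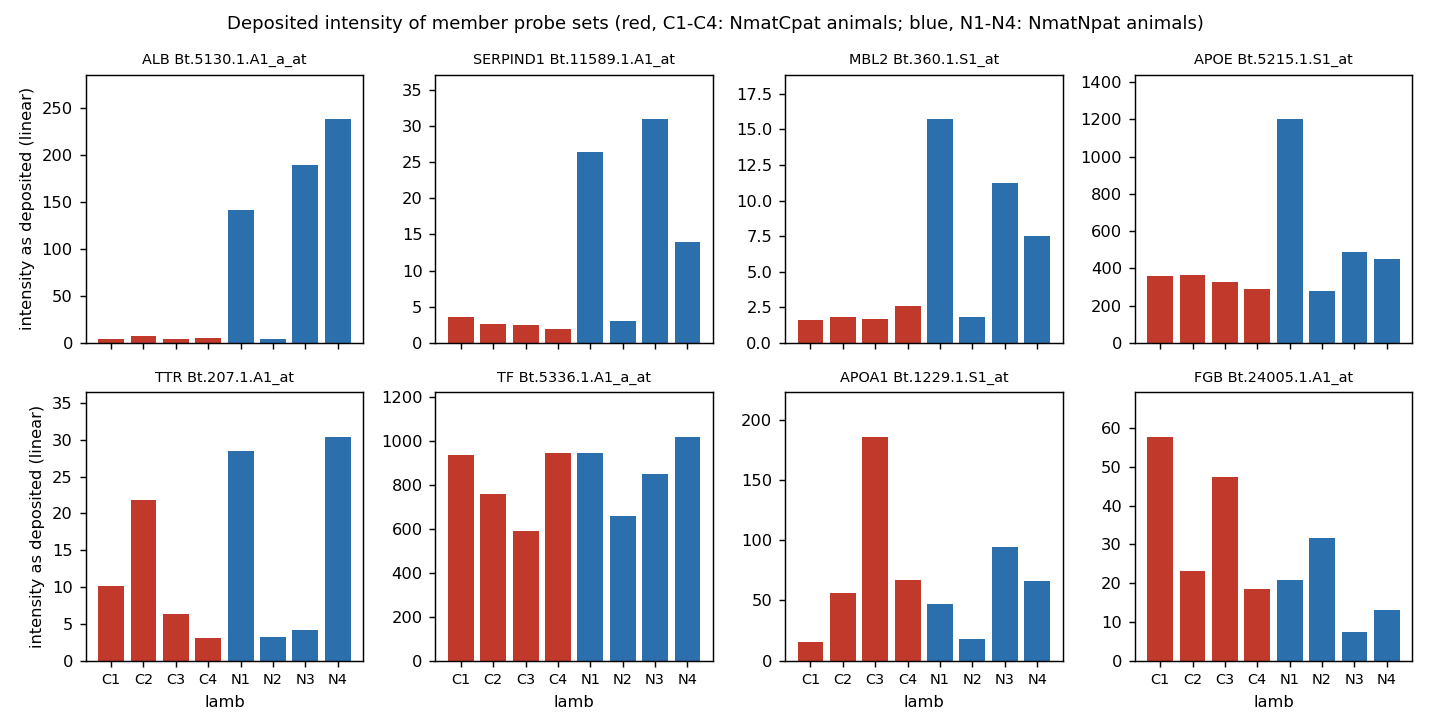
Deposited intensity, on linear axes that start at 0, of 8 probe sets for 8 of the genes in each lamb (red, C1 to C4, NmatCpat animals; blue, N1 to N4, NmatNpat animals; each bar is 1 array). SERPIND1, MBL2 and APOE share with ALB the highest bars in N1, N3 and N4 and a low bar in N2, while TTR, TF, APOA1 and FGB do not.

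Between the genotypes, the readings that differed most were those of the same genes. The differences are log2 values of NmatCpat minus NmatNpat with limma's standard error. Both varying ALB probe sets were lower in NmatCpat, with differences of -3.83 (SE 1.211; 95% interval -6.63 to -1.03) on Bt.5130.1.A1_a_at and -3.69 (SE 1.162) on Bt.5130.2.A1_x_at. SERPIND1 differed by -2.37 (SE 0.7027; -3.99 to -0.74) and MBL2 by -1.92 (SE 0.641; -3.40 to -0.44). Without NmatNpat animal 2, the low lamb of its group, the differences were -5.18 for ALB on Bt.5130.1.A1_a_at, -3.11 for SERPIND1 and -2.59 for MBL2.

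The other 7 ALB probe sets differed by -0.54 to 0.35, and each 95% interval included 0. The narrowest was that of Bt.12370.1.S1_at, at -0.09 (-0.46 to 0.27), and Bt.20236.1.S1_at stood at 0.00 (-0.47 to 0.47). Intervals that included 0 were also found for TF at -0.12 (-0.65 to 0.41), APOE at -0.65 (-1.61 to 0.31), TTR at -0.40 (-2.56 to 1.77), APOA1 at 0.27 (-1.58 to 2.13) and FGB at 1.05 (-0.16 to 2.25) and -0.24 (-1.95 to 1.47). AHSG lay between -1.63 and 0.77 over its probe sets. The interval of the flat Bt.2898.2.S1_a_at, at -0.03 (-0.37 to 0.31), and those of 6 others included 0, and that of Bt.23250.6.A1_x_at, at -1.47 (-2.89 to -0.06), did not. The intervals of TTR and APOA1 were wide, so a sizeable difference in either direction was not excluded with 8 arrays.

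The study's limits, an unadjusted P no higher than 0.05 and more than a 1.5-fold change, took in 5 of the 25 probe sets, all lower in NmatCpat: both varying ones of ALB, SERPIND1, MBL2 and AHSG Bt.23250.6.A1_x_at. Over all 24016 probe sets limma placed 3.93% past the same limits, 1.88% lower and 2.04% higher in NmatCpat, and since the contrast served to choose the genes nothing is read from the comparison. No probe set of the array had a Benjamini-Hochberg adjusted p under 0.05 in limma, while 1118 (4.66%) had an unadjusted P no higher than 0.05. The genotypes overlapped in all 25 probe sets. Over the whole array they were apart in 2.74% of probe sets, in 1.32% with NmatCpat the lower. With any 1 lamb left out, both varying ALB probe sets, SERPIND1 and MBL2 were still past the limits. The fifth, AHSG Bt.23250.6.A1_x_at, was past them in 2 of the 8 such fits. As the genes were picked with the contrast known, passing again on most of the same lambs is no support for a difference. The means of the neuron and the muscle markers were highest on NmatNpat animal 1 and NmatCpat animal 4. With both arrays set aside, none of the ALB pair, SERPIND1 (-1.93) and MBL2 (-1.71) was past the limits, though the differences kept most of their size. The 2 that then were past them were ALB Bt.23855.1.A1_at (-1.45), one of the 7 that disagree, and AHSG Bt.23250.6.A1_x_at (-2.00).

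How large these differences were depended on how dim readings were treated. With the offset of 16, which draws low values together, the difference became -2.41 (SE 0.6846; -3.95 to -0.87) for ALB on Bt.5130.1.A1_a_at and -2.15 (-3.52 to -0.78) on Bt.5130.2.A1_x_at. SERPIND1 shrank to -0.80 (-1.39 to -0.20) and MBL2 to -0.45 (-0.87 to -0.03). MBL2 was then under the fold limit, so 4 of the 25 probe sets were past the limits, against 2.84% of all, 1.37% lower in NmatCpat. APOE, bright in every lamb, was almost unmoved at -0.63 (-1.47 to 0.21), as was TF at -0.12 (-0.58 to 0.35).

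**Figure D3:**
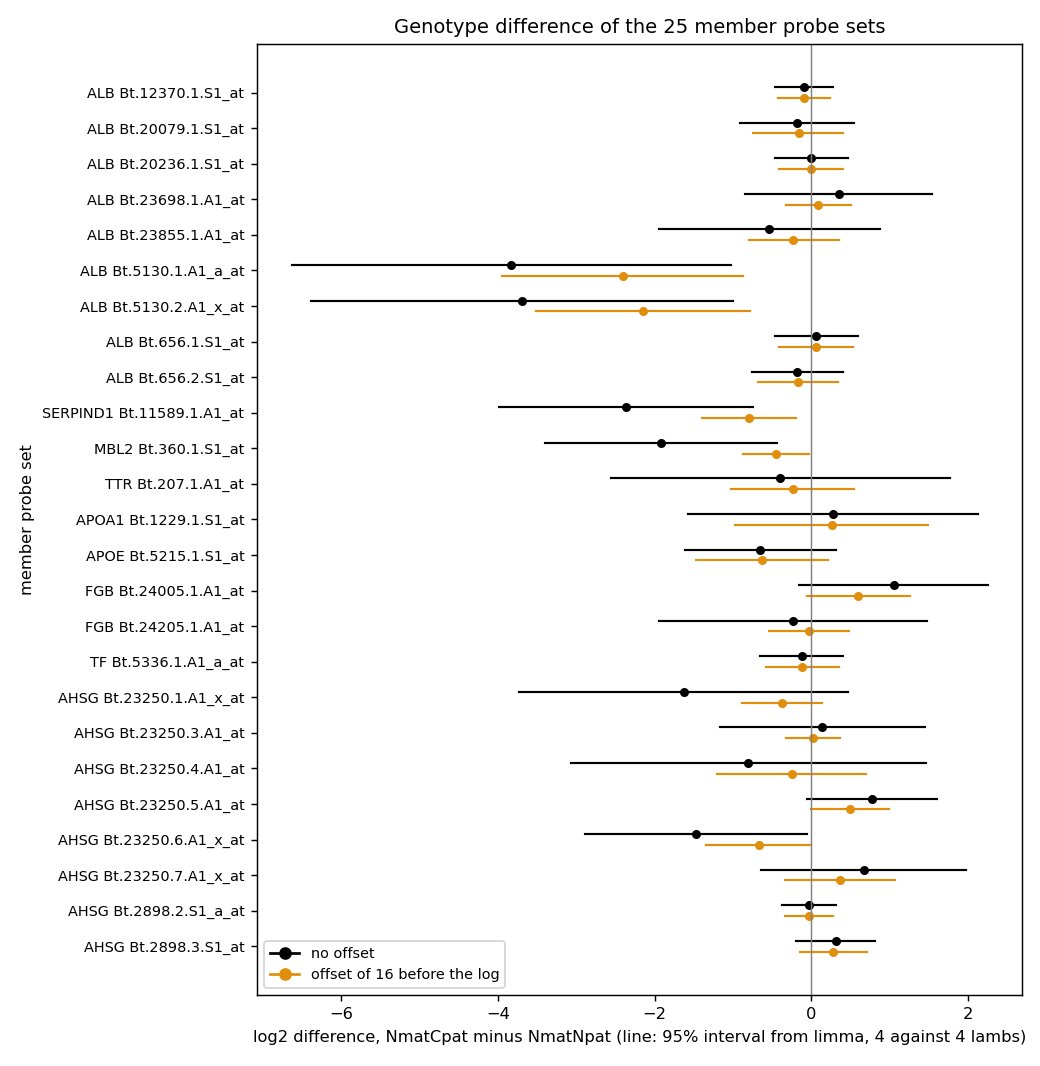
Log2 difference, NmatCpat minus NmatNpat, of the 25 probe sets (x axis), with lines for limma's 95% interval over 4 against 4 lambs; black points are without and orange points with an offset of 16 before the log. Both varying ALB probe sets, SERPIND1 and MBL2 lie to the left of 0 on both scales, the latter pair much nearer to 0 with the offset, and the 7 other ALB probe sets lie around 0.

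Whether the other genes followed albumin was read from Pearson's r with Bt.5130.1.A1_a_at over the 8 lambs, on the log2 scale with the offset of 16. The albumin readings fall into separate sets of 3 and 5 lambs, so the relation cannot be tested, and r serves as a measure of likeness only. It was 0.92 (Spearman's rho 0.69) for SERPIND1 and 0.91 (rho 0.86) for MBL2. Of all probe sets, 0.0791% and 0.104% had an r as high. Leaving out any 1 lamb kept SERPIND1 at 0.91 or above and MBL2 between 0.89 and 0.98. Like albumin, SERPIND1 and MBL2 were picked with the genotype contrast known, and r over the 8 lambs contains that contrast. A high r was therefore built in, and nothing is read from the rank of these genes or its stability. APOE had 0.68 (rho 0.71), which 2.38% of all probe sets reached, TF 0.55 (rho 0.62; 6.87%) and TTR 0.53 (rho 0.45; 7.69%). TTR depended on single lambs, with r between 0.29 and 0.82 when 1 was left out, and APOA1 had r = 0.20.

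Counting lambs gave the same division. The 3 highest lambs were NmatNpat animals 1, 3 and 4 for SERPIND1, MBL2 and APOE, which is 3 of the 16 probe sets of the genes other than ALB (18.8%). Over all 24016 probe sets the same 3 lambs were highest in 383 (1.59%). SERPIND1 and MBL2 had been picked from the contrast that separates these lambs in part. Of the 14 probe sets left when both are set aside, 1 shared the 3 highest lambs (7.14%), that of APOE.

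The wider group of liver plasma proteins was read in the same way. Lists of carriers, clotting proteins, protease inhibitors, apolipoproteins and defence proteins named 69 further genes, of which 58 were on the array, each read on its brightest probe set. None of the 58 had the 3 highest lambs of albumin, against 1.66% of all 9155 genes. The brightest probe set can miss the pattern, since for ALB itself it was Bt.12370.1.S1_at, with r = 0.28. Another probe set of a listed gene could therefore differ from the one read here. Of the 58, 27 were higher and 31 lower in NmatCpat, with a median difference of -0.02, where the median of all genes was 0.00. Their mean log2 level per lamb was 4.92 to 5.28 in NmatCpat and 4.97 to 5.14 in NmatNpat. The probe sets of 31 of the 58 genes stayed under the array's median on every array.

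Of the 58 genes, 1 (1.72%) was past the P and fold limits, where 2.91% of all genes were. This was LBP, which binds bacterial lipopolysaccharide, higher in NmatCpat by 1.34 (SE 0.5663; limma adjusted p = 0.983). It read 19.0, 24.6, 22.4 and 29.2 in NmatCpat animals 1 to 4 and 4.8, 7.1, 7.2 and 30.2 in NmatNpat animals 1 to 4. NmatNpat animal 4, with the highest albumin reading, was thus also highest in LBP, while the other NmatNpat lambs were low. With the offset of 16 none of the 58 was past the limits.

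The list members with the smallest p were otherwise modest. Among 15 measured carriers it was RBP4, the retinol-binding protein, with 1398.4, 1832.5, 1579.5 and 1456.0 in NmatCpat animals 1 to 4 and 971.9, 1002.6, 1230.6 and 1085.4 in NmatNpat animals 1 to 4. The genotypes did not overlap in RBP4, with NmatCpat above, as they did not in 2.74% of all probe sets in either direction. The RBP4 difference of 0.54 (SE 0.1671; limma adjusted p = 0.983) was under the fold limit. Among 13 clotting proteins it was PLG, plasminogen, at -1.11, among 8 protease inhibitors ITIH3, an inter-alpha-trypsin inhibitor heavy chain, at 0.82, and among 10 apolipoproteins APOC2, the activator of lipoprotein lipase, at 0.85. The adjusted p of each in limma was 0.983. FGG, the fibrinogen gamma chain, differed by -1.11, and AFP and AFM, relatives of albumin that neighbour it in the genome, by -0.74 and 0.44.

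The genes of the hepatocyte itself were mostly dim. Of 24 measured hepatocyte enzymes and transcription factors, out of 38 listed, 16 stayed under the array's median on every array, and their mean log2 level was 4.33 to 5.05 in NmatCpat and 4.49 to 4.85 in NmatNpat. CPS1, the first enzyme of the urea cycle, read 35.2 to 50.7 in NmatCpat and 36.2 to 59.1 in NmatNpat. HNF4A, a transcription factor of hepatocytes, read 24.4 to 73.0 and 30.3 to 71.9. Neither set the 3 lambs with high albumin apart from the rest.

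Among the 20 enzymes and transporters, 2 (10%) were past the P and fold limits, where 2.91% of all genes were, and 0 with the offset. GNMT, a glycine methyltransferase, was higher in NmatCpat by 0.68 (SE 0.2000; limma adjusted p = 0.983). SLCO1B3, a bile acid and drug transporter of the hepatocyte membrane, was lower, at -1.53 (SE 0.5836; limma adjusted p = 0.983) and read 25, 5.4, 9.6 and 9.5 in NmatNpat animals 1 to 4 and 1.9, 2.7, 8.2 and 4.3 in NmatCpat animals 1 to 4. SLCO1B3 and ARG1, the last enzyme of the urea cycle, were the 2 genes of the 20 (10%) whose 3 highest lambs were those of albumin, against 1.66% of all genes. ARG1 read 47.0, 27.8, 93.3 and 55.4 in NmatNpat animals 1 to 4 and 15.0, 23.6, 35.5 and 37.8 in NmatCpat animals 1 to 4, with r = 0.80. Of the 4 measured transcription factors the smallest p was that of CEBPA, which fat cells also use, with a difference of 0.48 (limma adjusted p = 0.983).

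No marker list of other cells had its mean level highest in the 3 lambs with high albumin. The 11 measured fat cell markers had 0 past the limits, the smallest p being that of DGAT2, a triglyceride-forming enzyme, at 0.63. CIDEC, a lipid droplet protein, was the 1 of the 11 (9.09%) that shared the 3 highest lambs of albumin, with r = 0.81, where 1.66% of all genes did. Of the 10 kidney tubule markers 1 (10%, against 2.91% of all genes) was past the limits. This was SLC13A3, a dicarboxylate transporter, at -2.65 (SE 0.4183; limma adjusted p = 0.715). It read 32.6, 37.7, 21.8 and 11.5 in NmatNpat animals 1 to 4 and 4.1, 2.2, 6.4 and 3.7 in NmatCpat animals 1 to 4, so that NmatNpat animal 2 was highest in it while lowest of its genotype in albumin. The mean log2 level of the kidney list was 5.02 to 5.44 in NmatCpat and 4.67 to 5.98 in NmatNpat.

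None of the 8 neuron markers was past the limits, though all 8 were lower in NmatCpat, with NEFL, a neurofilament chain, at -4.16. NEFM, another neurofilament chain, and SNAP25, a protein of synaptic release, had the 3 highest lambs of albumin (2 of 8, 25%, against 1.66% of all genes), each with r = 0.56. Without NmatNpat animal 1, where they were highest, the difference of albumin on Bt.5130.1.A1_a_at was -3.52, and without both that lamb and NmatCpat animal 4 it was -3.55. The part of neuron markers in the albumin reading was not tested. The adrenal cortex list had 0 of 8 past the limits (smallest p NR5A1, a steroidogenic transcription factor, 0.42), mesothelium 0 of 5 (UPK3B, a uroplakin, 0.30), skeletal muscle 0 of 10 (ACTA1, skeletal actin, 1.37) and macrophages 0 of 5 (ITGAM, an integrin chain, 1.18). Red cell markers had 1 of 7 (14.3%, against 2.91% of all genes), AHSP, the chaperone of alpha globin, at 2.22 (SE 0.6697; limma adjusted p = 0.983), and its r with albumin was -0.74.

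**Figure D4:**
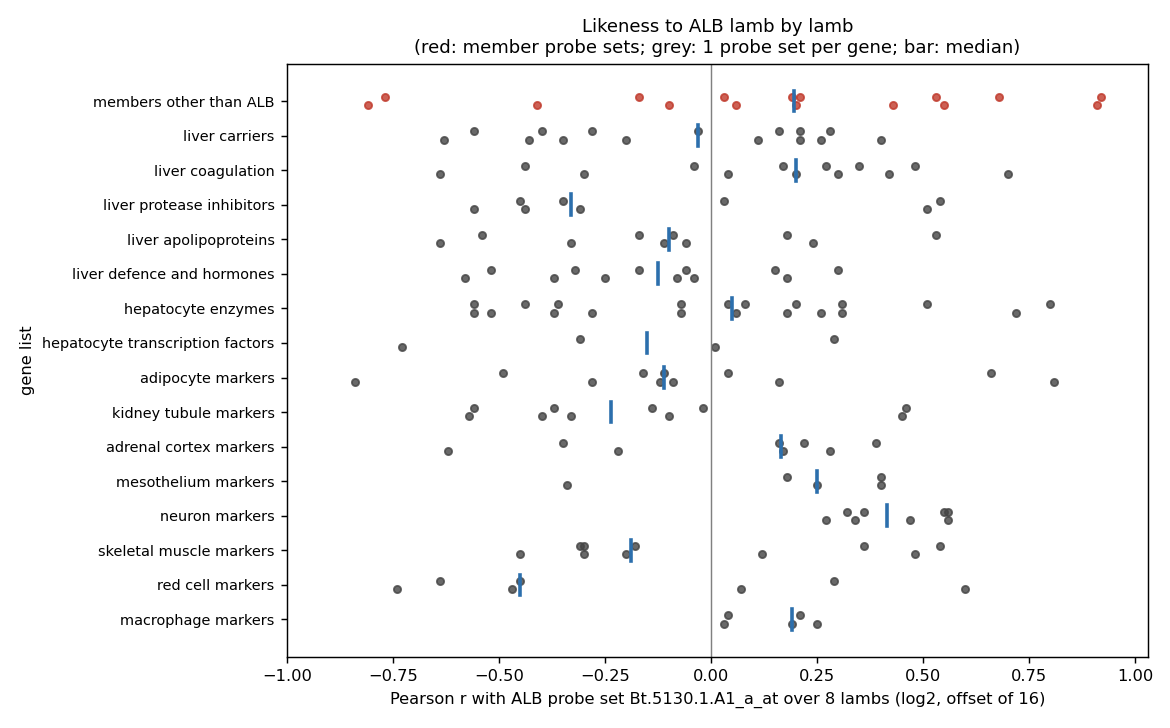
Pearson's r with ALB probe set Bt.5130.1.A1_a_at over 8 lambs (x axis) for the probe sets of the genes other than ALB (red) and for the measured genes of each wider list (grey, 1 probe set per gene), with the median of each row as a blue bar. SERPIND1 and MBL2 are the red points at 0.92 and 0.91, and no gene of the 5 lists of secreted proteins reaches 0.80.

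Genes that lie beside the 10 genes on the sheep chromosomes did not share the albumin pattern as a rule. Within 2 genes on either side, in the order of the ARS-UI_Ramb_v3.0 assembly, 20 neighbours that are not themselves in the set were measured. B4GALT6, a galactosyltransferase beside TTR, alone had the 3 highest lambs of albumin, with r = 0.88 and a difference of -1.33. The other neighbours had r from -0.77 to 0.55. Beside albumin, ANKRD17 had r = -0.21, AFP 0.16 and AFM -0.40, and PI4KA, which overlaps SERPIND1 in the assembly, had r = -0.19 and a difference of 0.15.

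The probe sets most like albumin outside the set were sought among 2681 with a single symbol and an SD of at least 0.5 on the offset scale, where r ran from -0.58 at the 5th percentile through 0.07 at the median to 0.61 at the 95th. The 8 highest were led by CD6, a surface glycoprotein of T cells (0.932), RPL7L1, a ribosomal protein relative (0.926), and EIF5, a translation initiation factor (0.925). After these came BCL2L14, of the BCL2 family (0.898), HGD, an enzyme of tyrosine breakdown (0.891), and SLC25A14, a mitochondrial carrier (0.879). The last were MANEA, an endomannosidase (0.870), and PRSS2, a trypsin (0.865). All 8 had the same 3 highest lambs as albumin, as did 57 of the 2681 (2.13%). CD6 read 74.6, 41.4, 98.2 and 85.4 in NmatNpat animals 1 to 4 and 21.0, 24.7, 35.8 and 28.9 in NmatCpat animals 1 to 4. EIF5 was bright, at 690.0, 544.1, 963.6 and 967.4 in NmatNpat animals 1 to 4 and 344.1 to 481.1 in NmatCpat. In both, unlike albumin, NmatNpat animal 2 lay above all NmatCpat lambs.

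In the rest of the 8, NmatNpat animal 2 lay among or near the NmatCpat lambs, or below them in SLC25A14. HGD read 47.5, 5.2, 25 and 27.2 in NmatNpat animals 1 to 4 and 3.8 to 14.0 in NmatCpat, and PRSS2 read 44.9, 7.6, 13.5 and 36.9 against 4.6 to 7.3. The differences of the 8 ran from -1.70 for PRSS2 to -0.60 for SLC25A14, with a limma adjusted p of 0.983 for each. As with albumin, other probe sets of a gene did not always follow: those of CD6 had r = -0.16, of EIF5 0.17, of BCL2L14 0.03 and of RPL7L1 -0.25 to 0.65.

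**Figure D5:**
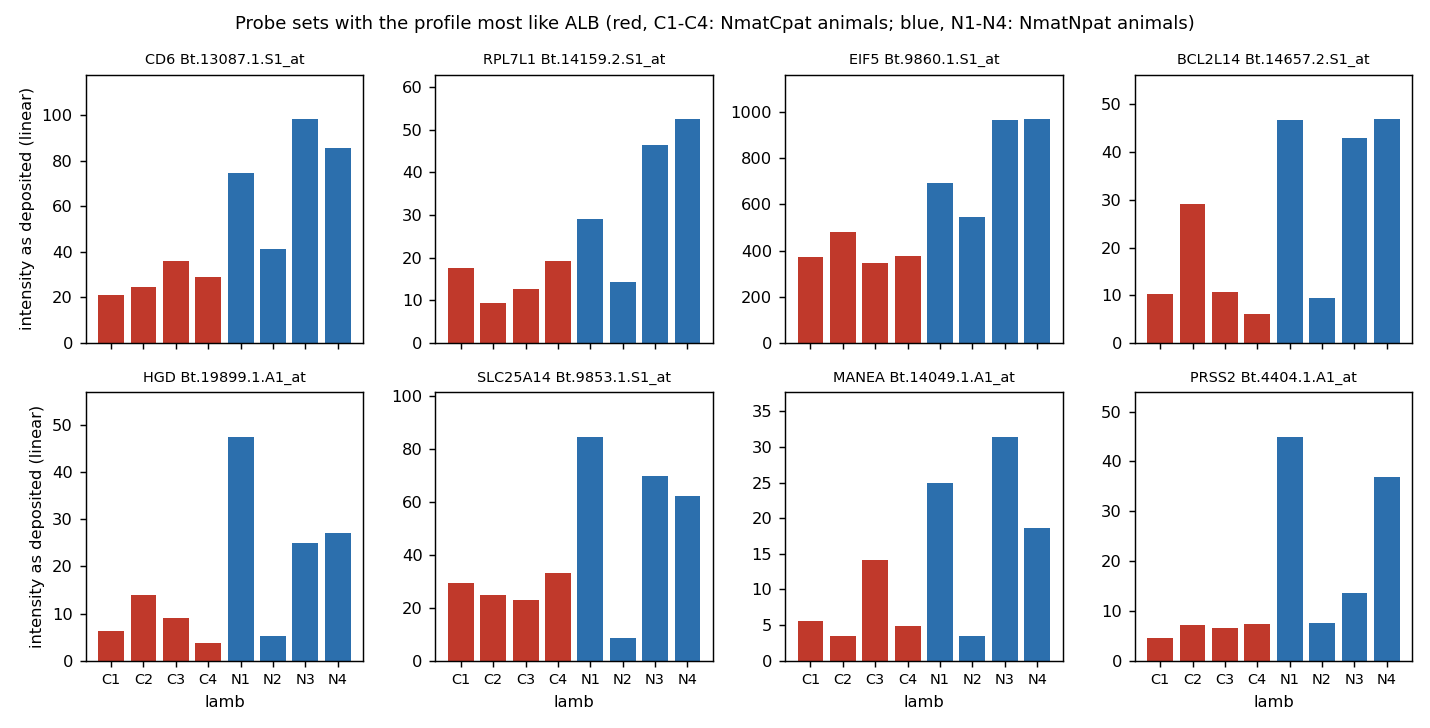
Deposited intensity, on linear axes that start at 0, of the 8 probe sets outside the set whose profile was most like albumin (red, C1 to C4, NmatCpat animals; blue, N1 to N4, NmatNpat animals; each bar is 1 array). In every panel N1, N3 and N4 have the highest bars, and N2 lies above all NmatCpat bars for CD6, EIF5 and, narrowly, PRSS2 and below all of them for SLC25A14.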

How the data were processed

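Total RNA of 8 perirenal adipose samples was hybridised to Affymetrix Bovine Genome arrays. The deposited intensity values, on a linear scale, had been pre-processed by the authors with MAS5. The MAS5 version was not given in the sources used here. The methods also name a quantile normalization, but the deposited columns did not share quantiles. Values were therefore taken to log2 and quantile-normalized over the 8 arrays, with no offset (main) or with 16 added. Depth has no meaning for arrays, and 8 arrays limit the precision.

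After 112 control probe sets were left out of 24128, 24016 entered a linear model in limma 3.58.1 under R 4.3.3 (lmFit, eBayes), NmatCpat minus NmatNpat, 4 lambs against 4. Called probe sets had P no higher than 0.05 and more than a 1.5-fold change, and P was also adjusted by Benjamini and Hochberg. Genes of the wider lists were read on the probe set with the highest mean. Named were every probe set of the 10 genes, in each list the gene with the smallest p and those called, and the 8 probe sets most like albumin, and other genes named were chosen after their values were seen. The genes, lists and tests were chosen with earlier results of these data known. A planned permutation test of likeness within genotypes was not made, since the albumin readings fell into separate sets of lambs. Gene symbols came from the platform annotation, which can be old, and the order and overlap of genes from RefSeq coordinates of the ARS-UI_Ramb_v3.0 assembly, none of which is printed. Replicate numbers did not pair the lambs. The fit was tested on simulated data. No sequence was used here.

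The alternatives were the offset, median-centred arrays, unmoderated or trended variances, a filter at the median level, averaging the probe sets of a gene, a replicate block, and leaving out lambs.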

Additional observations from a re-analysis of the deposited data

Results flagged for a closer look

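Within a genotype, 6 of 50 groups of 4 lambs held a lamb whose gap to the nearest of the others, over the range of the group, was above Dixon's 95% limit for a group of that size. Chance alone gives this in about 1 in 20 groups. Both varying ALB probe sets were among the 6. On Bt.5130.1.A1_a_at NmatNpat animal 2 had a log2 level of 2.13 where the others had 7.11 to 7.90, and on Bt.5130.2.A1_x_at it had 1.86 where the others had 6.68 to 7.36. The other ALB probe sets with such a lamb were Bt.656.1.S1_at, with NmatNpat animal 3 at 9.34 above others of at most 8.84, and Bt.23698.1.A1_at, with NmatCpat animal 2 at 3.83 above others of at most 2.34. FGB Bt.24205.1.A1_at had NmatNpat animal 3 at 1.52 below others of 3.40 to 3.51. AHSG Bt.23250.4.A1_at had NmatNpat animal 4 at 1.91 below others of 4.49 to 4.63.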

How the results depend on the processing

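No called genotype difference changed sign under any alternative, and 4 of the 25 moved by more than 1 SD: SERPIND1 (-0.80) and MBL2 (-0.45) with the offset, and the brightest probe sets of ALB and AHSG under averaging. ALB Bt.5130.1.A1_a_at ran from -5.18, without NmatNpat animal 2, to -2.41, with the offset of 16, and from -5.18 to -3.25 over the fits that left out 1 lamb. The probe sets with an adjusted p under 0.05 numbered 0 as reported by limma, and 1 with the offset, with trended variances and above the median level. Without NmatNpat animal 2 they numbered 2, both varying ones of ALB. That fit leaves out the 1 NmatNpat lamb with low albumin, on probe sets picked with the contrast known, so it is no test of albumin. Above the median level, 0 of the 25 were called. That filter leaves out dim probe sets, the 5 called ones among them, so this count is no check of their differences. The same holds for LBP and SLCO1B3, dim called genes of the lists. Averaging the probe sets of a gene, by construction a mixture of readings that disagree, took ALB to -0.90 from the -0.09 of its brightest, and AHSG to -0.26 from -0.03. The 943 called probe sets became 626 (290 lower) without moderated variances, and 244 (139 higher, 105 lower) among probe sets above the median level, where fewer were tested. The called genes of the 5 secreted lists numbered 1 as reported, 0 with the offset, 0 without moderated variances, 0 above the median level, 0 with NmatNpat animal 1 and NmatCpat animal 4 both left out, 2 with the replicate block, and 0 to 3 when 1 lamb was left out. Those of the hepatocyte lists numbered 2 as reported, 0 with the offset, 1 without moderated variances, 1 above the median level, 3 with NmatNpat animal 1 and NmatCpat animal 4 both left out, and 0 to 3 when 1 lamb was left out. Lambs sharing a number did not deviate together (correlations -0.01 to 0.05), and the replicate block left ALB Bt.5130.1.A1_a_at at -3.83 and called 1124 probe sets, 6 of them of the 10 genes. For the shift of counts the cause was not tested. One limit of these readings is signal over background: SERPIND1, MBL2 and the low ALB readings are near the bottom of the arrays, where log2 differences depend on the offset. Another is the spread between lambs: the SE of ALB Bt.5130.1.A1_a_at was 1.211 with NmatNpat animal 2 and 0.3347 without it.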
